A study of Mus musculus with 22 samples.

Results

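The effect of genotype on the paired pulldown ratio was measured in the striatum of 11 mice, 5 labelled KO (animals 2, 3, 9, 10 and 11) and 6 labelled WT (animals 1, 4, 12, 13, 14 and 20). The KO mice are a fragile X syndrome model, and the WT mice are their wild-type controls. All 11 animals carried an EGFP-tagged form of the ribosomal protein Rpl10a in medium spiny neurons that express the dopamine receptor Drd1 (D1 neurons), so the tag is shared by both genotypes. From each lysate, tagged ribosomes with their mRNA were pulled down with antibodies to EGFP (IP), and a small aliquot kept before the pulldown served as input. All 22 libraries of the series were used, as 11 pairs joined by animal number. The labels give no age, strain, litter or sex, and they do not state the allele of the mutation. Where values come from whole striatum, as in the input, fewer cells of a type and less RNA per cell cannot be told apart.

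FMRP, the product of Fmr1, binds RNA, is found on ribosomes and is best known as a repressor of translation at synapses. In the striatum, D1 neurons and the neurons that express the dopamine receptor Drd2 (D2 neurons) form the direct and indirect output pathways. A tagged-ribosome pulldown retains mRNA bound to ribosomes of the tagged cells, so the ratio of IP to input combines cell-type enrichment with ribosome association.

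For each gene the ratio is the log2 CPM (read count relative to library size) in IP minus the log2 CPM in the input of the same animal. A value of 1 is a level that is 2-fold higher in IP. The quantity of interest is the difference between genotypes in that ratio, KO minus WT, fitted as an interaction of genotype and assay with the animal as a block. A negative difference means a lower IP to input ratio in KO. The difference can come from the IP library, from the input library or from both, so the KO over WT differences within IP and within input are given beside it.

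Total counts per IP library were 13759027 to 49669222 in KO and 9375611 to 82376192 in WT, and those of the 11 inputs were 25164548 to 43276230. The log2 depth ratio of IP to input averaged -0.47 ± 0.77 in KO (SD, n = 5) and -0.17 ± 1.20 in WT (SD, n = 6), with a 2-sided exact permutation p of 0.675. The mitochondrial ribosomal RNAs took 38.4% ± 9.14 of input counts in KO and 31.2% ± 5.07 in WT (exact permutation p = 0.126, adjusted over 4 such measures 0.502), and KO animal 10 was highest at 53.2%. Slc17a7, the glutamate transporter of cortical neurons, stood at 25.2 to 113.2 CPM in the inputs of animals 1, 3, 9 and 12, against 0.640 to 3.30 CPM in the other 7 inputs. The IP libraries split the same way, at 17.2 to 68.0 CPM in animals 1, 3, 9 and 12 and 0.047 to 1.305 CPM in the other 7. These 4 animals are 2 KO and 2 WT. Calls of named genes lost or gained without them are given beside the results, with the shifts of some but not all named genes. The part of cortical tissue in any result was not tested beyond that.

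The gene targeted in the model was examined first. Fmr1 (ENSMUSG00000000838; chrX:68678541-68717963, plus strand, GRCm38/mm10) stood at 8.16 to 11.3 CPM in KO IP and 70.1 to 107.9 CPM in WT IP. In input it stood at 11.1 to 14.99 CPM in KO and 59.7 to 72.5 CPM in WT. Every KO library therefore matched its label, and each still held Fmr1 reads, 150 to 623 in IP and 255 to 542 in input.

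The paired log2 ratio of Fmr1 was -0.40, 0.03, -0.72, -0.52 and -0.37 in KO animals 2, 3, 9, 10 and 11. In WT animals it was 0.18 at the lowest, 0.40 at the median and 0.80 at the highest. The genotypes did not overlap (2-sided exact permutation p = 0.00216, the smallest that dividing 5 and 6 animals can give). In the fit, Fmr1 was lower in IP than in input in KO, by a log2 ratio of -0.40 (adjusted p = 0.00441), and higher in IP than in input in WT, by 0.43 (adjusted p = 0.000484). It was the only one of 17311 genes called in opposite directions in the 2 genotypes, but scaling each assay by itself put its KO ratio at 0.027 (adjusted p = 0.850). The genotype difference was -0.83 ± 0.14 (SE), with a 95% interval of -1.18 to -0.48 from limma on the paired ratios. Its adjusted p by edgeR's quasi-likelihood test over all genes was 0.128, so it did not pass the threshold of 0.05. Leaving out KO animal 3 made the difference -0.93 (adjusted p = 0.0391), and it was the only single animal whose removal produced a call. Within assays, the KO over WT log2 difference was -3.10 in IP and -2.28 in input, and both passed.

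**Figure D1:**
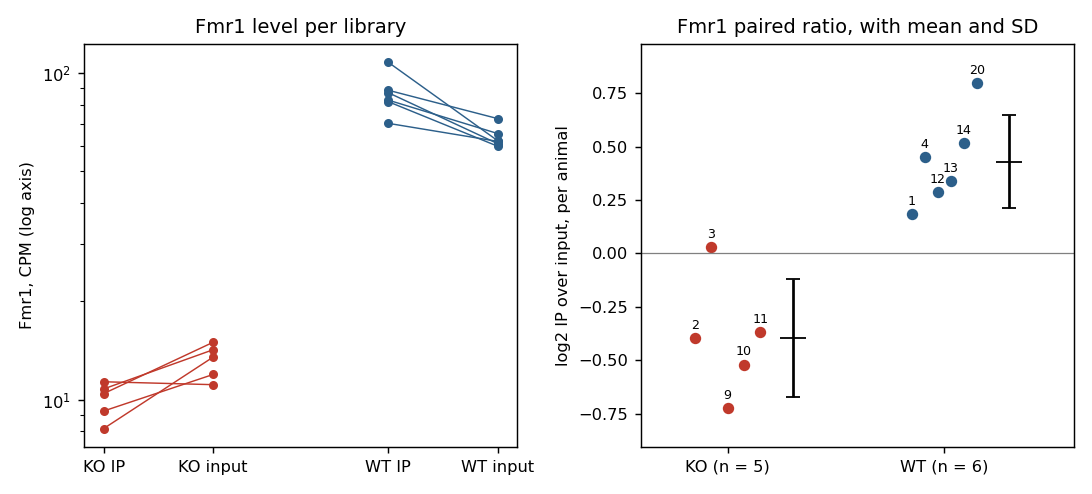
Left, Fmr1 level in CPM on a log axis in IP and input, with a line joining the 2 libraries of each animal. Right, the log2 IP over input ratio of each animal, numbered, with mean and SD. All 5 KO ratios (-0.72 to 0.03) lie below all 6 WT ratios (0.18 to 0.80).

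Across the transcriptome, no gene passed the test of the genotype difference in the ratio. Of 17311 genes tested, 0 were called by edgeR's quasi-likelihood test at an adjusted p of 0.05 (0%). At an unadjusted p under 0.05 there were 777 genes (4.49%), 382 with a higher (2.21%) and 395 with a lower (2.28%) ratio in KO. limma on the 11 paired ratios also called 0 (783 at an unadjusted p under 0.05), and DESeq2 with the same animal block called 5, namely Fmr1, Synj2, Lgi3, Agbl1 and Grb14. The differences centred on 0.00, with quartiles of -0.19 and 0.18. They were positive for 8760 genes and negative for 8551 (49.4%). Omitting the filter on low counts gave 34 calls in edgeR, all of genes also tested with the filter, so the count of 0 depends on that choice. The smallest adjusted p-values among the 34 belonged to the mitochondrial ribosomal RNAs mt-Rnr2 and mt-Rnr1, with differences of -0.56 and -0.35, and to mt-Nd4. By edgeR with no filter these were 1.4e-53, 2.3e-16 and 6.6e-09. Exact permutation of 11 animals gives no p under 0.00216, so values that small rest on the model of that fit. They are not a measure of the spread between animals, and mt-Nd4 overlapped between genotypes.

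The precision of that result depended on the level of the gene. Among the 8299 genes that averaged 10 CPM or more, the median size of the genotype difference was 0.096 on the log2 scale and the 95th percentile was 0.36. For 7991 of them (96.3%) the limma 95% interval lay within 1 log2 unit of 0, and for 5075 (61.2%) within 0.5. A difference of 2-fold or more thus lay outside the interval for most well-measured genes. Among the 9012 genes under 10 CPM, 22.6% had an interval within 1 log2 unit, and the median distance from the estimate to an end of the interval was 1.22. For most of those genes a 2-fold difference was not resolved.

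The pulldown profile was similar in the 2 genotypes. In KO, 8906 genes (51.4%) were called between IP and input, 3977 higher and 4929 lower in IP. In WT, 9319 (53.8%) were called, 4180 higher and 5139 lower. The 2 sets shared 7763 genes with the same direction, 3540 higher and 4223 lower in IP. Across the 8299 well-measured genes the KO and WT log2 ratios had a Pearson r of 0.98, a description across genes, which are not independent replicates. The SD of the ratios over genes within an animal was 0.94 ± 0.07 in KO (n = 5) and 0.92 ± 0.05 in WT (n = 6, exact permutation p = 0.654).

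Genes called in 1 genotype alone mostly had the same sign in the other. In KO alone 1142 genes were called, of which 1079 had the same sign in WT. Of these 1142, 169 (14.8%) had an unadjusted interaction p under 0.05, beside 4.49% of all genes tested. In WT alone 1555 were called, of which 1460 had the same sign in KO, and 148 (9.52%) had an unadjusted interaction p under 0.05. Both sets were chosen for a call in 1 genotype and not in the other, which itself favours a small interaction p. None of either set passed the interaction test after adjustment.

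**Figure D2:**
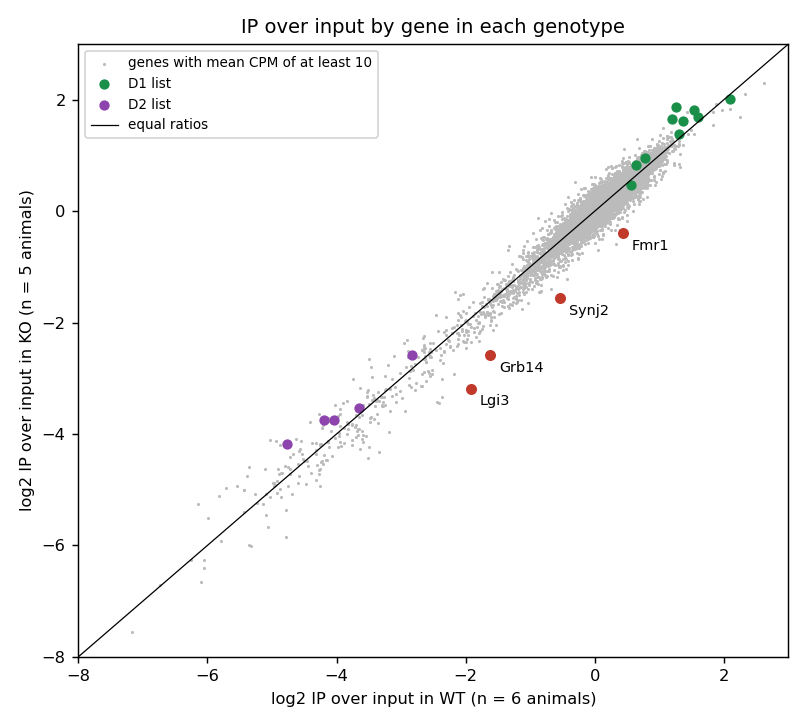
Log2 IP over input in KO (vertical) against WT (horizontal) for the 8299 genes that averaged 10 CPM or more, one point a gene, with D1 and D2 list members in colour and the line of equal ratios. Genes lie along the line, and Fmr1, Synj2, Lgi3 and Grb14 lie below it, by 0.83 to 1.27 log2 units.

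After Fmr1, the smallest p-values among genes with a lower ratio in KO belonged to Synj2, Lgi3 and Grb14. Genes named for a small interaction p, here and below, were chosen from these same values. That choice favours ranges that do not overlap, so a lack of overlap in them is a description and not further evidence. Synj2 (ENSMUSG00000023805; chr17:5941280-6044290, plus strand) encodes synaptojanin 2, an inositol polyphosphate phosphatase of membrane traffic. Its ratio was -1.44, -1.16, -1.71, -1.50 and -2.04 in KO animals 2, 3, 9, 10 and 11, and -0.81, -0.56 and -0.22 at the lowest, median and highest in WT. No KO animal reached the WT range. The difference was -1.02 ± 0.18 (SE; 95% interval -1.42 to -0.64), with an adjusted p of 0.128 by edgeR. Within assays the KO over WT log2 difference was -0.74 in IP and 0.27 in input, neither called and of opposite sign.

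Lgi3 (ENSMUSG00000033595; chr14:70530685-70538324, plus strand) encodes a secreted leucine-rich repeat protein of neurons and glia. It was depleted in IP in both genotypes. Its ratio was -3.48, -2.54, -2.85, -3.30 and -3.66 in KO animals 2, 3, 9, 10 and 11, and -2.47, -1.86 and -1.15 at the lowest, median and highest in WT. The ranges did not overlap, but KO animal 3 lay close to the lowest WT animal. The difference was -1.27 ± 0.25 (SE; edgeR adjusted p = 0.361), with -1.16 in IP and 0.14 in input. Without animals 1, 3, 9 and 12 it was -1.72 (adjusted p = 0.0683).

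Grb14 (ENSMUSG00000026888; chr2:64912476-65024987, minus strand) encodes an adaptor that binds and inhibits the insulin receptor. Its ratio was -2.68, -2.43, -2.08, -2.73 and -2.99 in KO animals 2, 3, 9, 10 and 11, and -1.93, -1.69 and -1.11 at the lowest, median and highest in WT. The genotypes did not overlap. IP levels were 4.37 to 6.25 CPM in KO and 7.15 to 11.3 CPM in WT, while input levels were 24.5 to 38.8 CPM in KO and 22.4 to 30.4 CPM in WT. The difference in the ratio was -0.97 ± 0.20 (SE; edgeR adjusted p = 0.490).

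The other genes described here of the 10 with the smallest p in this direction had an adjusted p of 1 by edgeR. Ptpn3 (chr4:57190841-57301837), a protein tyrosine phosphatase, had a ratio of -1.65 to -0.65 in KO and -0.38 to 0.26 in WT, which did not overlap, and a difference of -1.09 ± 0.25 (SE). Its input level ranged from 2.62 to 31.6 CPM in KO and from 2.52 to 18.4 CPM in WT, a spread far wider than that of the ratio. Ryr2 (chr13:11553102-12106945), the ryanodine receptor that releases calcium from internal stores, had ratios of 0.04, -0.11, -0.55, -0.17 and 0.23 in KO animals 2, 3, 9, 10 and 11. In WT its ratio was 0.12, 0.43 and 0.70 at the lowest, median and highest, so KO animal 11 overlapped WT. Its difference was -0.53 ± 0.13, with -0.47 in IP and 0.07 in input. Fat3 (chr9:15910189-16501285), an atypical cadherin, was depleted in IP in both genotypes, with a difference of -0.47 ± 0.12 and overlapping animals. Zfp105, a zinc finger gene, and Stk31, a kinase gene known from testis, had differences of -2.33 ± 0.60 and -5.78 ± 1.58. Both rested on few reads, with 6 to 28 and 0 to 10 reads per KO IP library.

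Among genes with a higher ratio in KO, Agbl1 had the smallest p. Agbl1 (ENSMUSG00000025754; chr7:76229887-77124698, plus strand) encodes a carboxypeptidase that removes glutamates from tubulin. Its ratio was 2.27, 1.32, 1.29, 2.33 and 2.06 in KO animals 2, 3, 9, 10 and 11, and -1.53, -1.15 and 0.10 at the lowest, median and highest in WT. All KO animals were above 0 and above all WT animals. The level was low, 1.13 to 2.71 CPM in KO IP and 0.178 to 0.814 CPM in WT IP, and another annotated gene overlaps 20.1% of its exon bases, so its reads are uncertain. The difference was 3.10 ± 0.71 (SE; edgeR adjusted p = 1), with 1.92 in IP and -1.14 in input, and the limma interval ran from 2.13 to 3.57 (limma adjusted p = 0.0722).

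Rprd1a, Prkch, Gorab and Slc30a1, on the higher side, had KO over WT estimates nearer to 0 in IP than in input. Rprd1a, a protein that binds the tail of RNA polymerase II, had ratios of 0.62, 0.60, 0.76, 0.86 and 0.60 in KO animals 2, 3, 9, 10 and 11, and 0.26, 0.39 and 0.46 at the lowest, median and highest in WT. The genotypes did not overlap, and the difference was 0.32 ± 0.08 (SE), with 0.02 in IP and -0.31 in input. Prkch (chr12:73584796-73778185), protein kinase C eta, likewise did not overlap, at 1.20 to 1.68 in KO and 0.82 to 1.14 in WT. Its difference was 0.36 ± 0.10, with -0.01 in IP and -0.39 in input. Gorab (chr1:163384908-163403669), a Golgi protein, had a ratio of 0.19 to 0.996 in KO and -0.83 to 0.07 in WT, without overlap. Its difference was 0.82 ± 0.23, with 0.28 in IP and -0.50 in input. Slc30a1 (chr1:191906767-191913247), a zinc exporter, had a difference of 0.48 ± 0.14 with overlapping animals, and 0.08 in IP and -0.39 in input. None of these passed the test, each with an edgeR adjusted p of 1.

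Serf2, a small protein known to affect amyloid aggregation, had a difference of 0.57 ± 0.16 (SE), with 0.32 in IP and -0.23 in input. Its counts are uncertain, since 65.4% of its exon bases overlap other annotated genes and the libraries do not mark strand. Prc1, a microtubule bundling protein of dividing cells, Ptger2, a prostaglandin receptor, and Exd1, an exonuclease-domain gene, had differences of 3.93 ± 0.93, 5.18 ± 1.35 and 2.65 ± 0.74. Their WT IP libraries held 0 to 14, 0 to 4 and 3 to 44 reads. The tenth was a gene with a predicted name only.

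**Figure D3:**
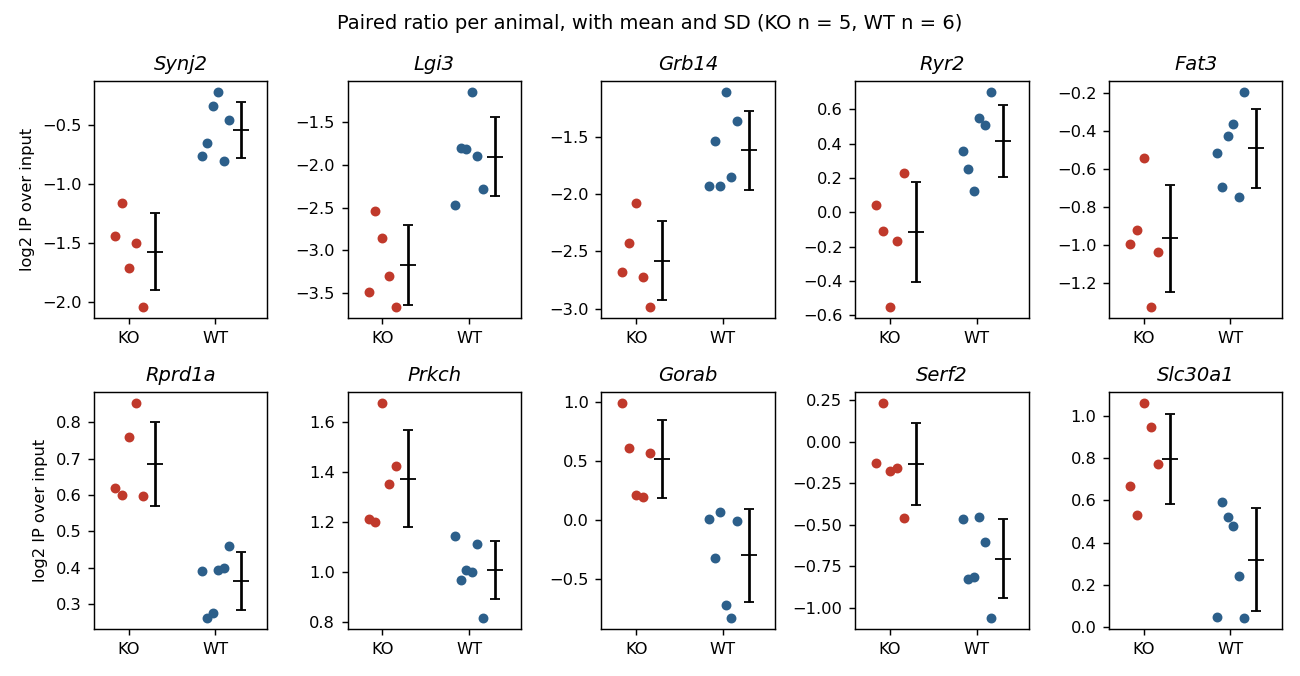
Log2 IP over input of each animal for 10 of the genes with the smallest p, KO left and WT right, with mean and SD. The top row holds genes with a lower mean ratio in KO (Synj2, Lgi3, Grb14, Ryr2, Fat3), and the bottom row genes with a higher one (Rprd1a, Prkch, Gorab, Serf2, Slc30a1). Ryr2, Fat3, Serf2 and Slc30a1 overlap between genotypes.

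Some genes called in 1 genotype had differences among the larger ones. Besides Agbl1, Ptpn3 and Gorab, the 5 KO-only genes with the smallest interaction p included Cdh6, a cadherin, with a ratio of -0.70 in KO (called) and 0.04 in WT, and Ntng2, the membrane-anchored netrin G2, with -2.33 and -0.28. The difference of Ntng2 was -2.05 ± 0.61 (SE), and -3.15 without animals 1, 3, 9 and 12. The 5 WT-only genes were Ryr2, Ptger2, Stk31, Exd1 and Atad2. Atad2, a chromatin-associated ATPase, had ratios of -0.35, -0.17, -0.60, -0.35 and -0.26 in KO animals 2, 3, 9, 10 and 11, and -0.05, 0.32 and 0.95 at the lowest, median and highest in WT. The 2 ranges did not overlap, and the difference was -0.74 ± 0.21 (SE; edgeR adjusted p = 1).

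The genes called between genotypes within IP were set beside their input values. Within the 11 IP libraries edgeR called 8 of 14456 genes (0.0553%), all lower in KO. Of these, Fmr1, Abi3bp, Tns1 and Igsf9b kept the call in all 11 fits that left out 1 animal, Cdh4 in 4, Isg15 in 3, and Pkp4 and Adamts18 in 1 each. Without animals 1, 3, 9 and 12, Cdh4, Isg15 and Adamts18 lost the call in IP, with edgeR adjusted p-values of 0.185, 0.264 and 0.222. Within the 11 inputs it called 3 of 16429 (0.0183%), also all lower in KO, namely Fmr1, Abi3bp and Tns1. The IP and input contrasts share no libraries with each other, but both share theirs with the interaction, so the values are set side by side only.

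Abi3bp (chr16:56477878-56690135), an extracellular matrix protein, was lower in KO by the same amount in both assays. Its level was 8.33 to 16.4 CPM in KO IP and 28.6 to 45.4 CPM in WT IP, and 7.998 to 11.4 CPM in KO input and 24.0 to 35.1 CPM in WT input. The KO over WT difference was -1.50 in IP and -1.50 in input. The paired ratio was 0.36, 0.26, 1.03, -0.13 and 0.45 in KO animals 2, 3, 9, 10 and 11, and -0.04, 0.49 and 0.84 at the lowest, median and highest in WT. KO animals lay on both sides of and within the WT range, and the difference of the ratio was -0.03 ± 0.20 (SE; 95% interval -0.51 to 0.45). It was -0.30 without animals 1, 3, 9 and 12.

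The other called genes had a larger KO over WT decrease in IP than in input. They were chosen for being low in IP, which favours that direction, and the difference of the ratio passed for none. Tns1 (chr1:73910231-74124449), tensin 1 of focal adhesions, had -1.31 in IP and -0.92 in input, both called. The input call was lost in 4 of the 11 fits that left out 1 animal, with an edgeR adjusted p of up to 0.121, and without animals 1, 3, 9 and 12 (0.0596). Its ratio was 0.19, 0.07, 0.99, 0.41 and 0.65 in KO animals 2, 3, 9, 10 and 11, and 0.58, 0.84 and 1.11 at the lowest, median and highest in WT. KO animals 9 and 11 lay within the WT range, and the difference of the ratio was -0.40 ± 0.17 (SE; 95% interval -0.80 to 0.02). Igsf9b (chr9:27299204-27357546), an adhesion protein of inhibitory synapses, had -0.94 in IP and -0.61 in input, with a difference of the ratio of -0.34 ± 0.16. Its difference of the ratio was -0.11 without animals 1, 3, 9 and 12, and its input difference was then -0.87 and was called (edgeR adjusted p = 0.0381). Pkp4 (chr2:59160850-59355208), a junctional armadillo protein, had -0.49 in IP and -0.22 in input. Its ratio lay between -0.61 and -0.07 in KO and between -0.11 and -0.01 in WT, where only KO animal 10 entered the WT range, and the difference was -0.28 ± 0.09. All had an edgeR adjusted p of 1 for the difference of the ratio.

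Cdh4 (chr2:179442431-179899373), R-cadherin, showed the largest gap between assays among those with more than a few reads. Its level was 2.89 to 6.49 CPM in KO IP and 8.38 to 22.6 CPM in WT IP, and 3.76 to 6.80 CPM in KO input and 6.40 to 10.6 CPM in WT input. The ratio was 0.36, -0.17, -0.33, 0.65 and -0.65 in KO animals 2, 3, 9, 10 and 11, and 0.32, 0.64 and 1.51 at the lowest, median and highest in WT. KO animals 2 and 10 overlapped WT. The difference was -0.84 ± 0.30 (SE; 95% interval -1.55 to -0.16), with an unadjusted edgeR p of 0.0108 and an adjusted p of 1. Isg15 (chr4:156199424-156200818), an interferon-induced ubiquitin-like protein, and Adamts18 (chr8:113697126-113848738), a secreted metalloprotease, had 1 to 17 and 2 to 6 reads per KO IP library. Their differences of -1.82 ± 0.67 and -1.88 ± 0.82 rest on those counts.

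**Figure D4:**
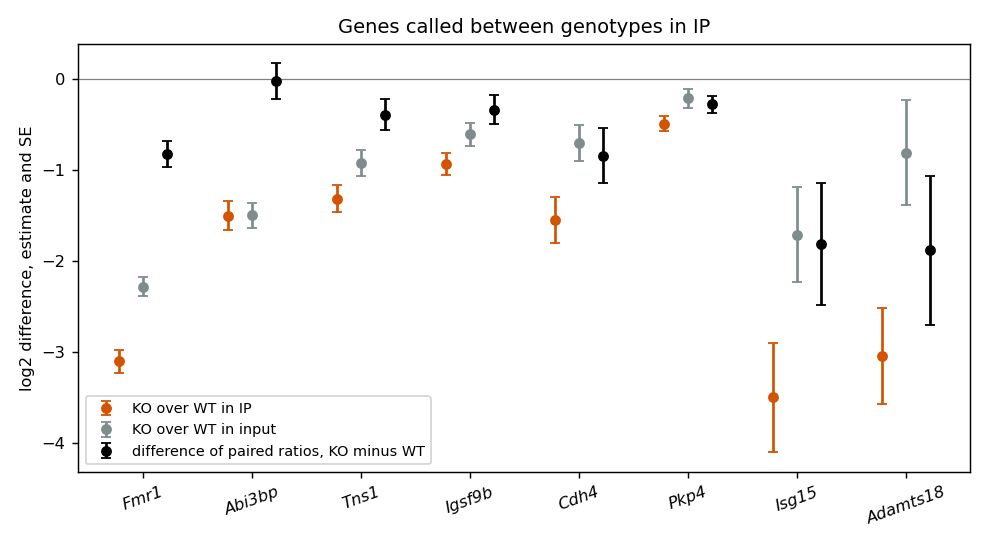
KO over WT log2 difference in IP, in input, and the KO minus WT difference of the paired ratio, with SE, for the 8 genes called between genotypes in IP. Abi3bp is equally low in both assays (-1.50 and -1.50), so its black point lies at -0.03, while Fmr1 is lower in IP (-3.10) than in input (-2.28).

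The cells that carry the tag were checked through their markers. All 10 listed D1 genes were called higher in IP in both genotypes, beside 23% of all genes in KO and 24.1% in WT. All 7 D2 genes were called lower, beside 28.5% of all genes in KO and 29.7% in WT. The median ratio of D1 genes was 1.63 in KO and 1.29 in WT, and that of D2 genes was -3.74 in KO and -4.04 in WT. The D1 label thus held in both genotypes by its defining markers.

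The genotype difference of the ratio was 0 called of 10 in the D1 list, with 8 positive and 2 negative members and a median of 0.19, beside a median of 0.00 over all genes. Drd1 (chr13:54051183-54055705), the dopamine receptor itself, had a ratio of 1.49, 1.70, 1.90, 1.35 and 1.66 in KO animals 2, 3, 9, 10 and 11. In WT its ratio was 1.08, 1.32 and 1.85 at the lowest, median and highest, and the genotypes overlapped. The difference was 0.25 ± 0.11 (SE; 95% interval -0.10 to 0.59), with -0.07 in IP and -0.32 in input. Isl1, a transcription factor of striatal projection neuron development, had a difference of 0.60 ± 0.24, Ebf1, a transcription factor of D1 neurons, 0.27 ± 0.10, and Slc35d3, a transporter-like protein that affects D1 receptor traffic, 0.44 ± 0.19. Sfxn1, a mitochondrial serine transporter, had a ratio of 0.77 to 0.92 in KO and 0.55 to 0.71 in WT, without overlap, and a difference of 0.20 ± 0.07. These 5 had an unadjusted edgeR p under 0.05 and an adjusted p of 1. Tac1 and Pdyn, the precursors of substance P and dynorphin, had 0.18 and 0.09, and Chrm4, a muscarinic receptor, had -0.08. With animals 1, 3, 9 and 12 left out, Slc35d3 had 0.18, Tac1 0.027 and Chrm4 -0.025.

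In the D1 list the KO over WT difference had a median of -0.08 in IP and -0.27 in input, where 10 of 10 members were negative, against 49.5% of all genes. Without animals 1, 3, 9 and 12 the median difference of the ratio was 0.12. KO animal 9 had the highest list median, 1.97, against 1.35 to 1.53 in the other KO animals and 1.14 to 1.61 in WT. Markers shared by D1 and D2 projection neurons leaned the same way, with 15 of 15 positive, a median of 0.12 and 0 called. Per animal their list median was 0.66 to 1.03 in KO, highest in animal 9, and 0.58 to 0.77 in WT, so the animals overlapped. The middle of the KO animal medians was 0.664, against 0.666 in WT. Leaving out KO animal 9 made the median difference 0.064. The KO over WT difference of these shared markers was negative in 15 of 15 in input (median -0.19) and had a median of -0.03 in IP. Arpp21, a cAMP-regulated phosphoprotein, had a ratio of 0.22 to 0.67 in KO and 0.09 to 0.20 in WT and a difference of 0.22 ± 0.07 (SE). The input share of mitochondrial ribosomal RNA, given above, was higher on average in KO, and its part in these input values was not tested.

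All 7 D2 genes had a positive difference as well, with a median of 0.29 and 0 called. Adora2a, an adenosine receptor of D2 neurons, had 0.59 ± 0.23 (SE), with a ratio of -4.65 to -3.53 in KO and -5.34 to -4.27 in WT, which overlapped. Drd2 had 0.12 ± 0.16 and Penk, the enkephalin precursor, 0.29 ± 0.23. The list median was 0.45 without animals 1, 3, 9 and 12, while Drd2 had 0.016 and Penk 0.019. D2 genes had a summed level of 48.0 to 78.3 CPM in KO IP and 46.9 to 80.9 CPM in WT IP, against 502 to 894 CPM in KO input and 777 to 1007 CPM in WT input.

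Genes of the translation apparatus were listed because FMRP acts on ribosomes. Cytosolic ribosomal proteins were depleted in IP in both genotypes, with 78 of 79 called lower in KO and 76 of 79 in WT, beside 28.5% and 29.7% of all genes called lower. Their ratio had a median of -1.21 in KO and -1.04 in WT. The genotype difference was negative in 76 of 79, against 49.4% of all genes, with a median of -0.17 and 0 called. In input 79 of 79 were higher in KO by point estimate (median 0.24), and in IP 62 of 79 (median 0.09). Per animal the list median was -1.38 to -0.98 in KO and -1.49 to -0.65 in WT, so the animals overlapped. Rps29, a small-subunit protein, had a ratio of -1.51, -1.34, -1.83, -1.86 and -1.72 in KO animals 2, 3, 9, 10 and 11, and -1.74, -1.10 and -1.004 at the lowest, median and highest in WT. WT animals 12 and 20 lay within the KO range, and the difference was -0.43 ± 0.13 (SE; edgeR adjusted p = 1). Members of this list share library and many have pseudogene copies, so they are not independent and their counts are uncertain.

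Translation factors had 17 positive and 23 negative members, with a median difference of -0.02. Genes of the mTOR pathway, which controls translation initiation, had 10 positive and 20 negative, with a median of -0.05. In both, 0 were called.

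The FMRP-bound list held 99 mRNAs known as binding partners of FMRP in brain. Its ratio had a median of 0.35 in KO, with 61 of 99 called higher in IP, and 0.49 in WT, with 70 of 99 called higher, beside 23% and 24.1% of all genes. The genotype difference was negative in 74 of 99, against 49.4% of all genes, with a median of -0.11 and 0 called. The KO over WT difference was negative in 89 of 99 in IP (median -0.15), against 49.3% of all genes tested in IP, and in 65 of 99 in input (median -0.05). Without animals 1, 3, 9 and 12 the median difference of the ratio was -0.02. Per animal the list median was 0.20 to 0.53 in KO and 0.31 to 0.62 in WT, so the animals overlapped. Ptprd, a receptor tyrosine phosphatase of synapses, had a difference of -0.35 ± 0.11 (SE), and Tcf20, a chromatin-associated coregulator, -0.26 ± 0.09, neither passing the test. The list was written by hand with results of these data known, and it is not independent evidence of a direction.

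Mitochondrially encoded mRNAs, which cytosolic ribosomes do not translate, were depleted in IP in both genotypes, with a median ratio of -4.68 in KO and -4.14 in WT. The genotype difference was negative in 12 of 12, against 49.4% of all genes, with a median of -0.44 and 0 called. Per animal the list median was -4.71 to -3.75 in KO and -4.48 to -3.20 in WT, so the animals overlapped. Members of this list share each library, so they are not independent. Without the filter on low counts, edgeR called 34 genes. Among them were 5 of this list, all lower in KO, namely mt-Nd4, mt-Nd1, mt-Nd2, mt-Cytb and mt-Nd5. mt-Nd4, a subunit of complex I, had ratios of -4.00, -4.12, -3.84, -4.70 and -3.80 in KO animals 2, 3, 9, 10 and 11, and -3.84, -3.63 and -3.17 at the lowest, median and highest in WT. KO animals 9 and 11 overlapped WT, and KO animal 10, which had the highest mitochondrial ribosomal RNA share in input, was lowest. The difference was -0.48 ± 0.16 (SE; edgeR adjusted p = 1). Nuclear-encoded genes of oxidative phosphorylation had 43 positive and 33 negative members, with a median of 0.02.

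Microglial markers had 11 of 14 negative, a median difference of -0.69 and 0 called, on very low IP levels. That median ran from -0.95 without KO animal 3 to -0.29 without KO animal 10, and was -0.35 by limma. Their summed level was 4.86 to 11.1 CPM in KO IP and 8.61 to 12.9 CPM in WT IP, against 161 to 235 CPM in KO input and 140 to 230 CPM in WT input. Cx3cr1, the fractalkine receptor, had 0 to 6 reads per KO IP library and 1 to 69 per WT IP library. Markers of astrocytes (median -0.02), oligodendrocytes (0.16) and their precursors (-0.13) had 0 called genes. Leaving out 1 animal at a time moved these medians from -0.12 to 0.09, from -0.02 to 0.29 and from -0.26 to 0.24, so none kept its sign. Also with 0 called genes were the markers of red blood cells (-0.20), choroid plexus with ependyma (0.13), fibroblasts with mural cells (0.21), endothelium (0.39), cortical excitatory neurons (-0.15) and striatal interneurons (0.29), as well as interferon response genes (0.06). With 1 animal left out at a time, the cortical median ran from -0.28 to 0.014, and it was 0.022 without animals 1, 3, 9 and 12. The interferon median ran from -0.015 to 0.41, and that of choroid plexus with ependyma from -0.45 to 0.36. The interneuron and endothelial medians ran from 0.066 to 0.56 and from 0.074 to 0.53. Those of fibroblasts with mural cells and of red blood cells ran from 0.015 to 0.57 and from -0.39 to -0.030. In the input of WT animal 20 the choroid plexus and ependyma markers summed to 2972 CPM, against 209 to 265 CPM in KO inputs and 178 to 248 CPM in the other WT inputs. Without that animal the median of those markers was -0.45.

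Signalling genes of the D1 neuron showed no called member. The dopamine and cAMP list had 21 of 27 positive, with a median of 0.09, and Gnal, the G protein subunit that couples Drd1 to adenylyl cyclase, had 0.18 ± 0.08 (SE). Glutamate receptors with their scaffolds had 16 positive and 24 negative (median -0.02), and group I mGluR signalling, a pathway long studied in fragile X models, had 10 positive and 9 negative (median 0.00). Immediate early genes, which respond to neuronal activity, had 8 of each sign, with a median of 0.02. The other members of the FMRP family and its partners had, with Fmr1 included, 4 positive and 11 negative values and a median of -0.03.

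**Figure D5:**
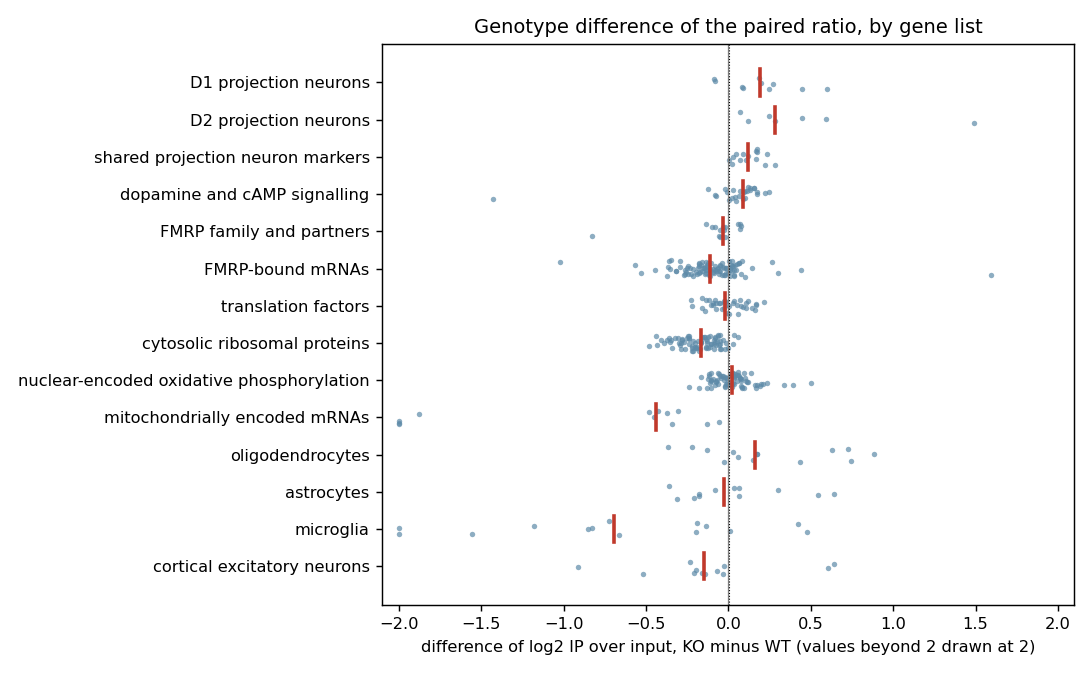
KO minus WT difference of the log2 IP over input ratio for the members of 14 gene lists, one point a gene, with the list median as a red bar and the median of all genes as a dotted line. Medians lie at 0.19 and 0.29 for D1 and D2 genes, -0.17 for ribosomal proteins, -0.11 for FMRP-bound mRNAs and -0.44 for mitochondrially encoded mRNAs, and 0 genes in these lists passed the test.

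Transcript length was examined because ribosome association can vary with it. Protein-coding genes that averaged 10 CPM or more were put into 5 equal groups by exon length. The median ratio of the shortest group was -0.04 in KO and -0.06 in WT, and that of the longest was 0.32 in KO and 0.34 in WT. The median genotype difference was 0.02, 0.02, 0.02, 0.00 and -0.01 from the shortest to the longest group, and the share of negative differences was 45.7%, 44.9%, 45.6%, 49.4% and 54.3%. These medians are small beside 0.096, the median size of the difference among all genes that averaged 10 CPM or more. Within assays, the median KO over WT difference was 0.06 in the shortest group and -0.05 in the longest in IP. In input it was 0.03 in the shortest group and -0.04 in the longest.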

How the data were processed

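The authors deposited a raw read count for each gene symbol in each of 22 libraries. The submitters' processing notes name STAR, featureCounts and mm10, with versions not given in the sources used here. Per the labels' protocols, the library kit does not mark strand, and 1 batch covered every pulldown and sequencing run. The deposited tables of genotype comparisons were not used.

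The members, gene lists and tests were chosen with earlier results of these data known. The 55341 symbols were matched to GENCODE vM21 (GRCm38/mm10) for positions, types and exon overlaps. Counts were scaled by TMM over 22 libraries, filtered by filterByExpr over the 4 groups of genotype and assay, and fitted by edgeR 4.0.16 (R 4.3.3, robust quasi-likelihood) with animal as a block and IP in WT and IP in KO as terms, leaving 9 residual degrees of freedom. The contrast was IP in KO minus IP in WT. KO against WT within IP and within input was fitted in 11 libraries each. Unless another tool is named, adjusted p-values are Benjamini-Hochberg over all genes of the edgeR fit, 2-sided, with a threshold of 0.05. Values per animal are log2 CPM of IP minus log2 CPM of input with a prior count of 2. limma 3.58.1 on these ratios gave the 95% intervals, and single values were compared by 2-sided exact permutation over all divisions into 5 and 6 animals. The SE of a fitted difference is its size divided by the square root of the edgeR F statistic. An SE or edgeR p and the limma interval beside it thus come from different models, and the interval can be wider. DESeq2 1.42.0 was an alternative. Only the interaction contrast of the paired edgeR fit was tested on simulated counts, which held no animal effect.

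The animal numbers pair each IP with the input of the same lysate. Deviations from group means correlated within an animal at 0.25 to 0.52 over 8299 genes, and all 11 animals correlated best with their own number. No columns were identical. P-values refer to the spread between these animals, but those of the edgeR fit with no filter on low counts were not checked against it.

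Named genes were Fmr1; the 10 genes with the smallest interaction p in each direction, since fewer than 5 were called; the genes called between genotypes in IP; genes called in opposite directions or in 1 genotype only (5 each); D1 and D2 list members; and members of the other lists with the smallest p. Genes with a predicted name only were not named, and 1 gene that the rule names is not reported here. Homologous or overlapping genes can share reads. Slc17a7 was given because the 4 animals with cortical markers were known from an earlier analysis.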

Additional observations from a re-analysis of the deposited data

Results flagged for a closer look

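Of 150 sets of animals of 1 genotype examined for a single animal standing far from the rest, 5 held one, and chance flags about 1 in 20 such sets. In WT, the log2 IP over input ratio of Drd1 was 1.85 in animal 12, against 1.08 to 1.37 in the other WT animals. In WT, that of Upb1, a D2 list member with 0 to 15 reads per WT IP library, was -1.68 in animal 1, against -5.38 to -4.13 in the others. KO animal 9 stood apart in 3 list medians of the ratio. It had 1.97 for D1 projection neurons (other KO animals 1.35 to 1.53), 1.03 for markers shared by projection neurons (0.66 to 0.69) and -1.59 for striatal interneurons (-4.27 to -3.66). Animals 9, 12 and 1 are among the 4 with raised Slc17a7, and the part of cortical tissue in these values was not tested.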

How the results depend on the processing

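The count of 0 genes with a genotype difference in the ratio was the same under size factors by relative log expression, TMM within each assay, mitochondrial genes left out, a filter of 1 CPM in 5 libraries, limma, and without animals 1, 3, 9 and 12. It was 5 by DESeq2 and 34 with no filter on low counts, and the cause was not tested. It ran from 0 to 1 when each animal was left out. With no replicate block, that is without pairing the libraries of an animal, it was 0, and 8188 genes in KO and 8585 in WT were called between IP and input, beside 8906 and 9319 with the pairing. For those 2 counts the alternatives gave 7769 to 10511 in KO and 8232 to 10749 in WT, and 8072 to 8931 in KO and 8446 to 9555 in WT with each animal left out. KO against WT in IP gave 75 calls by DESeq2 and 4 to 8 with each animal left out. KO against WT in input gave 28 by DESeq2, 5 with no filter, 7 without animals 1, 3, 9 and 12, and 2 to 7 with each animal left out. TMM within each assay moved the median ratio of all genes to 0.31 in KO and 0.30 in WT, against -0.11 in both with scaling over 22 libraries, and put the Fmr1 ratio in KO at 0.027. It also moved the genes called higher in IP to 7092 in KO and 7242 in WT. Among the values of the difference of single genes under the alternatives, 14 changed sign and 16 passed the threshold. The rest kept their direction and their side of the threshold. Without animals 1, 3, 9 and 12, Eya1 and Sp9 had -0.044 and -0.045. With each animal left out, Abi3bp ran from -0.18 to 0.10, Chrm4 from -0.20 to 0.065, Eya1 from -0.0044 to 0.14, Zfp521 from -0.16 to 0.0075 and Plxdc1 from -0.21 to 0.50. Among genes called in IP, Cdh4, Pkp4, Isg15 and Adamts18 kept their calls in 4, 1, 3 and 1 of the 11 fits that left out an animal. With 11 animals, genes under 10 CPM had wide intervals.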
